A study of Homo sapiens with 3 samples.

Results

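The 2 arrays of HCT116 cells depleted of SMARCA4, called SMARCA4-KD1 and SMARCA4-KD2, were set against each other, as 2 of the 3 arrays of the study. They were chosen by their labels (titles ending in S12 and S23) and not by any measured value. HCT116 is an established human colorectal cancer cell line, and the study asked which genes depend on the chromatin remodeler SMARCA4 in such cells. All cells were transfected with Lipofectamine 3000, the knockdown cells with a small interfering RNA (siRNA) against SMARCA4 and the NC cells with a negative control. Total RNA was hybridised in 1 colour to Agilent SurePrint G3 arrays, 1 array per condition. The titles name SMARCA4, whereas the treatment field of the same records names PRMT1-KD1, PRMT1-KD2 and PRMT1-NC, and the number of each knockdown was taken from that field. The KD1 and KD2 arrays lay on the same slide and were scanned together, and the NC array lay on another slide, so NC values are given here only beside those of the knockdowns. With 1 array each, no difference has a replicate check and no test was possible.

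SMARCA4, also called BRG1, is the ATPase that drives the SWI/SNF chromatin remodeling complexes, which slide and evict nucleosomes at promoters and enhancers. An siRNA is loaded into an Argonaute protein and guides the cleavage of the mRNA to which it is fully complementary. The bases near the 5′ end of the guide strand, the seed, can also pair with other mRNAs in the way a microRNA does, and a pair of siRNAs with different sequences shares its intended target but not its seed.

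The siRNA numbered 1 is shown because the siRNA sequence is the designed difference between the arrays. It was 19 bases long, with the seed (bases 2 to 8) in capitals. The labels list the siRNAs by number and do not say which strand is given or tie them to the arrays other than by that number.

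SMARCA4 siRNA-1: uCGCUUUGguucgcaaauc

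Of 2370 human mature miRNAs in RefSeq (GRCh38.p14), 0 had the same bases 2 to 8 as this siRNA as listed. Over bases 2 to 7, in capitals below, it matched 1 miRNA.

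hsa-miR-4315: cCGCUUUcugagcuggac

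SMARCA4 itself was measured by 1 probe (chr19:11172673-11172732, hg19, plus strand). Its processed intensity was 3960 in KD1, 4129 in KD2 and 14026 in NC. After each array was scaled to its own 75th percentile, the knockdown arrays held 26.6% and 28.8% of the NC level. KD1 and KD2 lay close together and far below NC. The level was 0.11 lower in KD1 on the log2 scale. This was less than the error of ±0.20 that the extraction software gives for the spots of both arrays together. Repeat spots of a probe within an array varied less, with a median SD of 0.03 over 281 probes in KD1 and 282 in KD2. Such repeats do not cover differences between arrays. PRMT1, the arginine methyltransferase named in the treatment field, read 9801 in KD1, 10147 in KD2 and 7683 in NC, and was not low in either knockdown. TNS4, a focal adhesion protein that the study placed downstream of SMARCA4, read 1256, 1159 and 4029 in the same order, and the growth factor receptor EGFR read 865, 817 and 1087. The knockdowns differed by 0.06 for TNS4 and by 0.03 for EGFR on the log2 scale, both within the error of the spots. The 3 probes of EGFR ran from 0.03 to 0.41.

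The arrays were alike in depth. The 75th percentile was an intensity of 237 in KD1 and 228 in KD2, 46.8% and 47.3% of 58201 probes were well above background, and the lowest such signals were 16.9 and 16.4. The 8 RNA spike-ins that were well above background differed by 0.01 ± 0.08 (SD) on the log2 scale. Of 12 markers of colorectal epithelium, 11 were well above background on both arrays, among them EPCAM, KRT19 and CDX2, and MUC13 was not. Of 10 fibroblast markers only COL1A1 was, and of 6 endothelial markers VWF and CDH5 were. VWF read 27.9 in KD1 and 51.96 in KD2 (-0.95 on the log2 scale) and CDH5 45.98 and 61.2 (-0.47), so both were lower in KD1. The summed intensity of the epithelial markers was 467930 in KD1 and 457890 in KD2, that of the 10 fibroblast markers 512 and 423, that of 8 leukocyte markers 4069 and 4159 and that of the endothelial markers 88.2 and 135. The leukocyte sum came mostly from CD4, and CD3E and MS4A1 were not well above background on either array. The part of any such RNA in the differences below was not tested.

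Most genes had nearly the same level in both knockdowns. A gene was kept when either array showed its brightest probe well above background, which gave 22126 genes. At least 1.5-fold higher in KD1 were 684 genes, or 3.09% of those kept, and at least 1.5-fold higher in KD2 were 805, or 3.64%. The median difference, KD1 minus KD2, was -0.02 on the log2 scale with an SD of 0.43 across genes. These counts came mainly from weak signals. Of the 20112 genes well above background on both arrays, 269 (1.34%) were past 1.5-fold in KD1 and 389 (1.93%) in KD2. Of the 11856 genes that lay above the 75th percentile on both, only 30 (0.253%) and 52 (0.439%) were. Among these well-expressed genes the SD of the difference was 0.18, and 9558 differed by less than the error of their spots. The spread fell from 0.42 for genes 2 to 3 log2 units below the percentile to 0.16 for those more than 4 units above it.

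**Figure D1:**
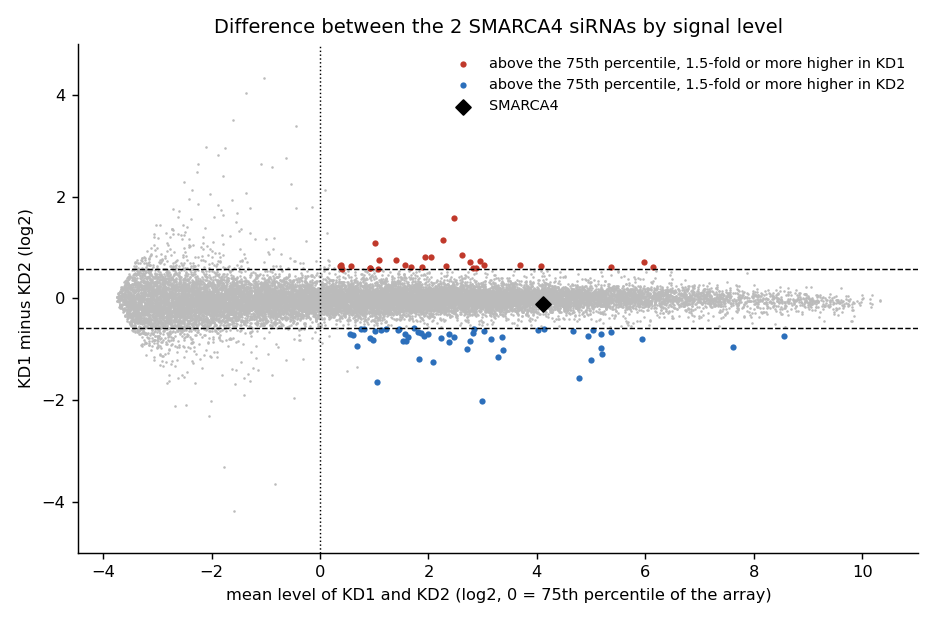
Difference between KD1 and KD2 (log2, vertical axis) against the mean level of both arrays (log2, horizontal axis, 0 is the 75th percentile of the array) for the 20112 genes well above background on both. Dashed lines mark 1.5-fold, red and blue points are the 30 and 52 genes past it that lie above the 75th percentile on both arrays, and SMARCA4 (diamond) sits at -0.11, inside the band.

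The position of the spots on the slide moved with the largest differences. For each gene the 6 nearest spots were read, and an adjacent spot was counted when it was at least 2-fold apart in the same direction as the gene. Among well-expressed genes within 1.5-fold, 3.40% had such a neighbour. Such a neighbour was found for 6 of the 30 higher in KD1 and for 9 of the 52 higher in KD2 (17.3%). The share was 35.7% and 21.6% for all genes past 1.5-fold on both arrays. Of the genes well above background in KD1 alone, 278 (31.7%) had a bound of at least 2-fold, and 217 of these (78.1%) had such a neighbour. In KD2 alone there were 235 (20.7%), and 158 of them (67.2%) had one. Where a gene named below had such a neighbour this is stated, and the part of the neighbours in the differences was not tested. Without genes that had such a neighbour, 327 were past 1.5-fold in KD1 and 507 in KD2.

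Among well-expressed protein-coding genes, that is those with a RefSeq mRNA accession above the 75th percentile on both arrays, the gene highest in KD1 relative to KD2 was DDA1, which encodes a component of a CUL4 ubiquitin ligase. DDA1 read 1690 in KD1, 739 in KD2 and 757 in NC, so KD2 and NC lay together and KD1 stood 2.20-fold above KD2 (log2 1.14 ± 0.20, the error of the spots). Its most different neighbour was 0.94 higher in KD1 on the log2 scale, just under the limit of 2-fold. ERI3, an exoribonuclease family member, read 1202, 655 and 748 in KD1, KD2 and NC, and its 6 neighbours lay between -0.14 and -0.01. BCL2L1, which encodes the survival protein Bcl-xL, read 1290, 712 and 946, with NC between the knockdowns, but a neighbour of its spot was 5.05 higher in KD1 on the log2 scale.

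The other genes of these 10 came from several pathways. PDGFB, a platelet-derived growth factor chain, read 654, 375 and 473 in KD1, KD2 and NC. UBL7, a ubiquitin-like protein, read 808, 463 and 624. GRINA, a membrane protein of the TMBIM family, read 2363, 1366 and 1350. NC lay between the knockdowns for PDGFB and UBL7, and with KD2 for GRINA. CPA4, a secreted carboxypeptidase, read 2067, 1212 and 278, so that both knockdowns were far above NC, at 700.2% and 426% of its level, and KD1 was 1.64-fold above KD2. CHAMP1, which acts in chromosome alignment, read 3852, 2357 and 2611, and PCGF1, a Polycomb ring finger protein, read 2420, 1485 and 1418. PEG10, an imprinted retrotransposon-derived gene, read 384, 238 and 352, with NC close to KD1. The smallest of the 10 differences, that of PEG10, was 1.56-fold, and only BCL2L1 had a neighbour past the limit.

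The largest difference in the other direction was that of FAM229A, a small protein of unknown function. It read 933 in KD1, 3645 in KD2 and 2755 in NC, a 4.05-fold difference (log2 -2.02 ± 0.20), and its neighbours lay between -0.06 and -0.01. KD1 was the array that stood apart. ULK1, the kinase that starts autophagy, read 279, 836 and 606, and MCMBP, which binds the MCM helicase, read 3784, 10756 and 11739. Both had a neighbour at least 2-fold lower in KD1, at -1.56 and -1.64 on the log2 scale. These values are the differences of MCMBP and ULK1 themselves, so each lay beside the other on the slide. MCMBP has another probe that did not follow, at 0.15, and ULK1 has none.

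PRR36, a proline-rich protein, read 5015 in KD1, 11131 in KD2 and 8595 in NC, and the zinc finger gene ZNF467 read 1547, 3291 and 2379. For both, NC lay between the knockdowns and the next brightest probe was near equality, at -0.04 and -0.11 on the log2 scale. PRSS36, a serine protease, read 1097, 2103 and 1488, and LHX3, a LIM homeodomain factor of the pituitary and motor neurons, read 1195, 2070 and 1371. The ubiquitin ligase NEURL1 read 1596, 2687 and 2542, with quiet neighbours. FRMD6, an upstream member of the Hippo pathway, read 350, 591 and 708, and CC2D1B, a transcriptional repressor, read 341, 563 and 566. Both of these had a neighbour past the limit, and the next probe of CC2D1B was at 0.02. The neighbour of FRMD6 was at -1.64, the value of ULK1.

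**Figure D2:**
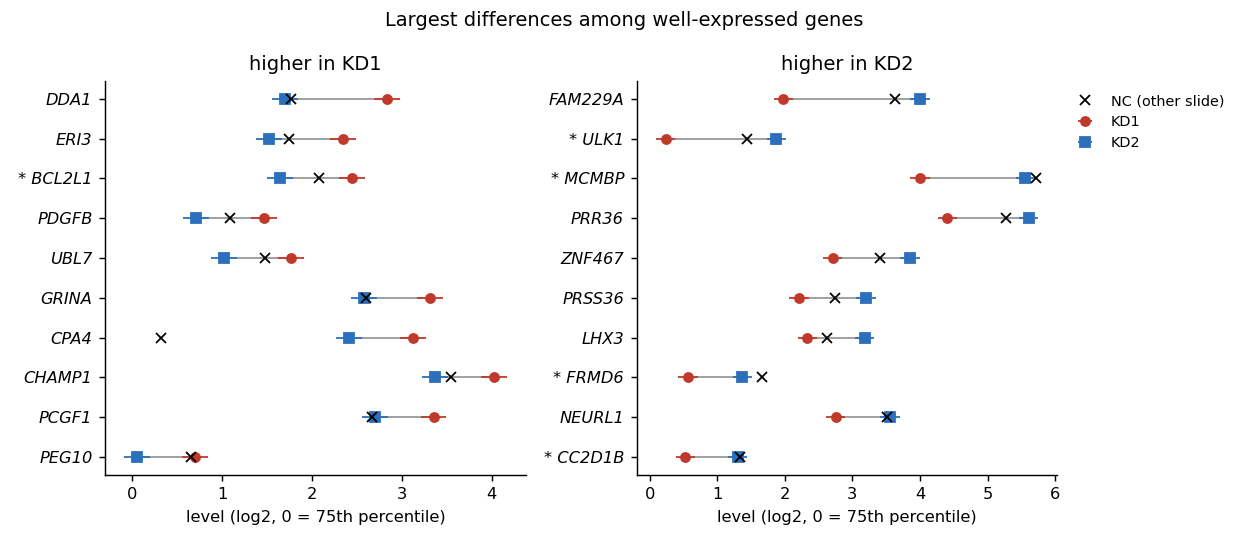
Levels (log2, 0 is the 75th percentile of the array) of the 10 well-expressed genes with the largest difference in each direction, in KD1 (circles), KD2 (squares) and NC (crosses, other slide), with the error of each spot as the extraction software gives it. Stars mark the 5 genes with an adjacent spot at least 2-fold apart in the same direction. CPA4 is the gene whose NC level lies farthest outside the range of the knockdowns.

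The base composition of the probes also moved with the direction. The probes of FAM229A, PRR36 and ZNF467 were 75%, 78.3% and 83.3% G or C. Of the 52 well-expressed genes higher in KD2, 13 had a probe over 65% G or C, against 1 of the 30 higher in KD1 and 1.55% of those within 1.5-fold. The 196 well-expressed genes with such probes had a median difference of -0.06 and an SD of 0.33, whereas the SD was 0.16 for the 6380 genes with probes of 35 to 45%. The part of base composition in these differences was not tested.

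The NC array was nearer to KD2 than to KD1 for 22 of the 30 well-expressed genes higher in KD1 and for 37 of the 52 higher in KD2. It lay between the knockdowns for 18 and 32 of them. The same shares over all well-expressed genes were not counted, so these counts cannot be read as a trait of the genes that differed.

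Larger folds were found among weakly expressed genes, nearly all beside other differing spots. Of the 10 protein-coding genes with the largest differences among those on both arrays but not above the percentile on both, 9 had a neighbour past the limit. HBM, a globin chain, read 263 in KD1, 22.3 in KD2 and 16.2 in NC, DGKK, a diacylglycerol kinase, read 561, 51.9 and 3.82, and GPRASP1, a receptor sorting protein, read 116.4, 20.03 and 19.93. Each was highest on the KD1 array. PCDHB11, a protocadherin, and SDCBP2, a syntenin, were 4.89-fold and 4.40-fold higher in KD1. In the other direction TXK, a T cell kinase, read 37.6, 451 and 65.9, and MAB21L2, a developmental regulator, read 55.04, 163 and 79.6. ACTL9 and C17orf98, both known from testis, were 4.28-fold and 3.16-fold higher in KD2. The exception was SPATA21, which read 86.2, 323 and 193 with quiet neighbours, but whose other probe was at 0.08.

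For genes whose brightest probe was seen on 1 array only, a fold is a bound. The signal was set against the higher of the gene's own signal on the other array and the lowest signal well above background there. SLC25A31, an ADP/ATP carrier of the testis, read 31397 in KD1 and was not well above background in KD2 or NC, which gives at least 1849-fold. Its brightest neighbour had a bound of 11.13 on the log2 scale, larger than its own 10.85. CCRL2, NAALADL1, IL17F and BIRC7 were at least 23.1-fold, 18.8-fold, 17.7-fold and 15.9-fold higher in KD1, and DNAAF1, FPGT-TNNI3K, OR4B1, DMRTC1 and CELA3B at least 9.66-fold, 7.81-fold, 7.77-fold, 7.73-fold and 7.41-fold higher in KD2. NAALADL1 and IL17F were each other's most different neighbour, so these genes were not all apart on the slide. All 10 genes were beside a spot past the limit in the same direction. The same held for 9 of the 10 transcripts without a RefSeq mRNA accession that had the largest differences on both arrays, from LOC100506974 (517 in KD1, 24.7 in KD2) to LINC01038 (18.5 and 324). Another probe, well above background on both arrays, was at 0.14 for LOC100506974 and at -0.12 for FPGT-TNNI3K. The exception, ENST00000510095, read 17.9 in KD1, 74.99 in KD2 and 18.9 in NC.

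Genes with several probes gave a check within the arrays. Of the 269 genes past 1.5-fold in KD1 on both arrays, 25 had another probe well above background on both, which lay on the same side for 12 of them and past 1.5-fold on that side for 2. Of the 389 past 1.5-fold in KD2, 41 had another probe, on the same side for 28 and past 1.5-fold for 2. For genes within 1.5-fold the other probe lay on the same side in 61.6% of 4607, and past 1.5-fold on that side in 98 (2.13%). The share past it was 8% for the genes higher in KD1 and 4.88% for those higher in KD2, each from 2 genes. Different probes can also read different transcripts of a gene, which was not analysed here.

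Of the 4673 genes with at least 2 such probes, 2 had all probes at least 1.5-fold higher in KD1 and 2 had all at least 1.5-fold higher in KD2. The former were USP2, a deubiquitinase, which read 47.7 in KD1, 28.1 in KD2 and 22.9 in NC with its probes 0.71 and 0.91 higher in KD1 on the log2 scale, and LINC00624, a long non-coding RNA, which read 167, 104 and 28.2 with its probes 0.64 and 1.11 higher. The latter were LOC100507464, which read 23.3, 47.2 and 33.8, and GUCY1B2, a guanylate cyclase subunit gene, which read 68.3, 102 and 117. All 4 had quiet neighbours.

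RHOB and CFL1 came next in this order, and both were well expressed. RHOB, a small GTPase of endosomes and actin, read 4249 in KD1, 2761 in KD2 and 1050 in NC, and its probes were 0.57 and 0.62 higher in KD1. CFL1, the actin-severing protein cofilin, read 20593, 12912 and 17289, and its probes gave the same pair of values, 0.57 and 0.62. RHOB was above NC in both knockdowns, whereas NC lay between them for CFL1. MAP3K14-AS1 had probes at 0.53 and 0.69 but a neighbour past the limit. On the other side CYSRT1 read 444, 654 and 558 with its probes at -0.61 and -0.58, DHRS12, a dehydrogenase, read 115, 162 and 241 with both at -0.55, and STOX1, a winged helix factor, read 196, 273 and 321 with its probes at -0.96 and -0.53. None of these 3 had a differing neighbour.

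Like most genes, the subunits of the SWI/SNF complexes stood at nearly the same level in both knockdowns. Of 31 subunits 30 were measured, with a median difference of -0.01 beside -0.02 over all genes. Past 1.5-fold were 6.67% of the 30, beside 6.73% of all genes, with 0 in KD1 and 2 in KD2. These were BCL11A (52.6 in KD1, 79.0 in KD2, 89.5 in NC) and BCL11B (51.3, 82.0 and 97.0), zinc finger proteins best known from blood cells, both weakly expressed here. SMARCA2, the ATPase that can take the place of SMARCA4, was also weak and read 44.1, 59.1 and 114, and its 2 probes were 0.48 and 0.35 lower in KD1. ARID1A, a DNA-binding subunit of the canonical BAF complex, read 693, 466 and 463 and was 0.52 higher in KD1 on the log2 scale. Among the core subunits, SMARCB1 read 5866, 5472 and 5756, SMARCC1 read 1824, 1990 and 2217, and SMARCE1 read 7827, 8173 and 7298. SMARCD1 read 3196, 2622 and 1196, so that both knockdowns were above NC. Of the 30 subunits, 25 differed by less than the error of their spots, as did 16126 of all 22126 genes.

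The 15 genes that the study listed as shared targets were also alike in both knockdowns. Their median difference was -0.05 on the log2 scale, 4 were higher in KD1 and 11 in KD2 by any amount, and 0 of 15 were past 1.5-fold in either direction. This list was chosen by the study with these arrays in use and is not independent of them. By the brightest probe, the largest difference was that of KIAA0040, which read 669 in KD1, 875 in KD2 and 1460 in NC. ABCC3, a drug and bile salt exporter, was next and read 326, 422 and 701. Other probes reached -0.45 for ICMT and 0.44 for TSPAN14, whose brightest probes were at -0.05 and -0.01. Of the 10 arginine methyltransferases and partners measured, 0 were past 1.5-fold and the median was -0.09. CARM1 read 13807, 12524 and 6439, and PRMT5 read 15135, 14494 and 8013, both similar in the knockdowns and higher than in NC.

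Across 42 gene lists with 1971 measured genes, 74 genes (3.75%, beside 6.73% of all genes in either direction) were past 1.5-fold, in 20 of the lists, and the list medians ran from -0.09 to 0.12 on the log2 scale. Among genes above the 75th percentile on both arrays, 0.692% were past 1.5-fold, and the lists differ in how many such genes they hold. Every list median was within 1.1-fold of equality. Of all genes, 45.6% were higher in KD1 by any amount and 54.4% in KD2, and the lists are read beside these shares.

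**Figure D3:**
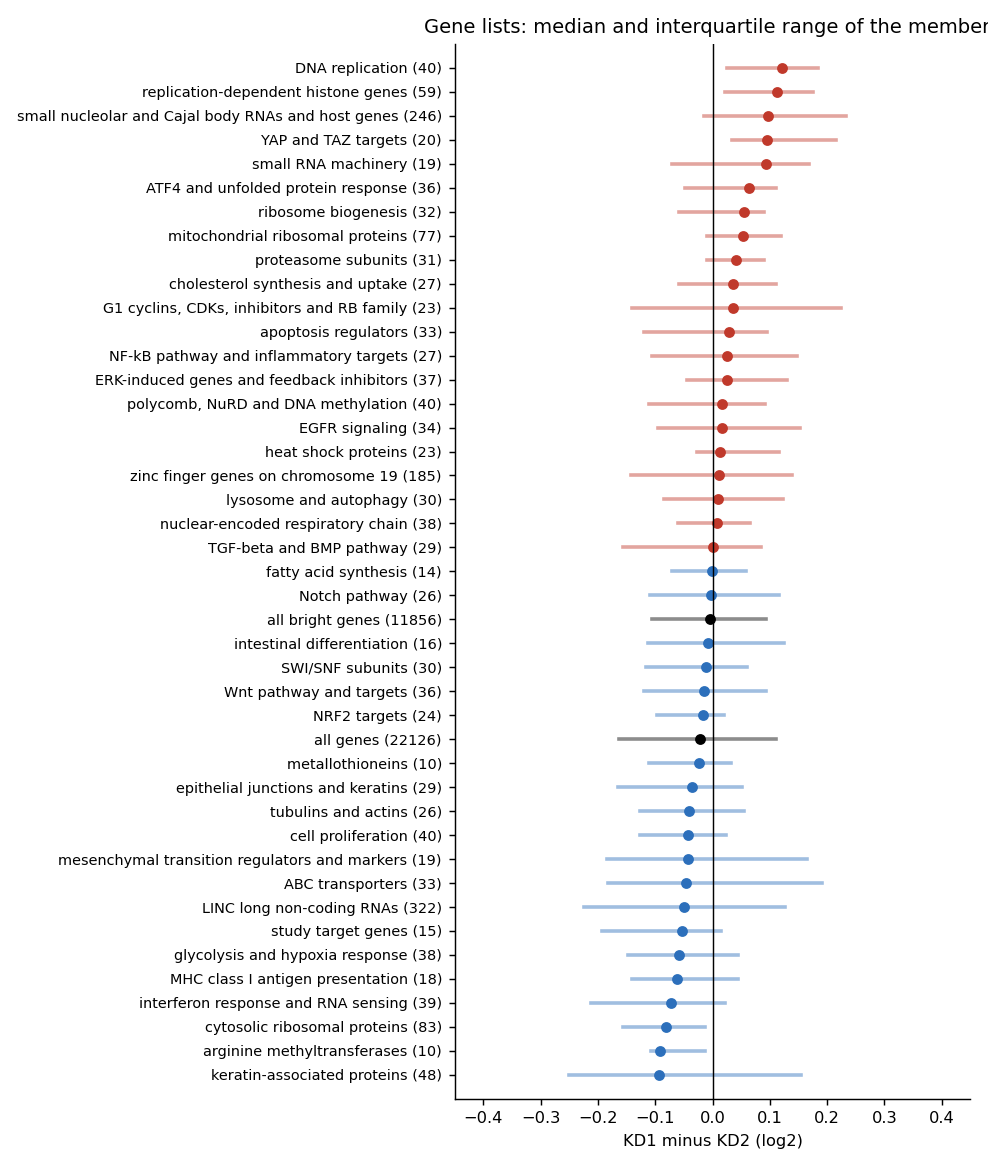
Median (points) and interquartile range (bars) of the differences between KD1 and KD2 (log2, horizontal axis) in the gene lists and in all genes (black), with the number of measured genes in parentheses. DNA replication lies highest, with a median of 0.12, and cytosolic ribosomal proteins lie among the lowest, with -0.08.

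Most genes of DNA replication were slightly higher in KD1. Of 40 members, 34 (85.0%) were higher in KD1 by any amount, the median was 0.12, and 0 were past 1.5-fold. Taken singly, 34 of the 40 differed by less than the error of their spots. The origin licensing factor CDC6 read 142 in KD1, 93.7 in KD2 and 96.9 in NC, a difference of 0.55 on the log2 scale. MCM10, which activates the replicative helicase, read 691, 493 and 611, and ORC1, a subunit of the origin recognition complex, read 221, 168 and 212. The helicase subunit MCM4 read 2746, 2174 and 3454, but its partner MCM2 read 3107, 3287 and 3802 and so did not share the direction. The sliding clamp PCNA and thymidine kinase TK1 were each 0.01 higher in KD1. The 9 members with another probe had a median of 0.04 there. The replication-dependent histone genes, whose proteins are built into chromatin in S phase, had a median of 0.11. Of 59 measured, 46 were higher in KD1 and 45 were within the error of their spots. Those past 1.5-fold were HIST1H1T (50.5, 17.9 and 3.63) and HIST1H2AA (40.8, 19.02 and 34.6), both weak and both known from testis. Among strongly expressed histones, HIST1H4H read 1951, 1614 and 2485 and HIST1H4C read 122188, 126307 and 134851, on opposite sides. Histone genes are near-identical copies, so their probes may read each other.

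In the list of cell proliferation genes, 13 of 40 were higher in KD1, the median was -0.04, and 0 were past 1.5-fold. Of these, 34 differed by less than the error of their spots. The 6 members with another probe had a median of 0.15 there, and 5 of them were higher in KD1.

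Ribosomal proteins of the cytosol and of the mitochondria lay on opposite sides. Of 83 cytosolic ribosomal proteins, 64 were higher in KD2, with a median of -0.08, and 68 differed by less than the error of their spots. RPS12 was the only member past 1.5-fold, at 68988 in KD1, 110645 in KD2 and 77093 in NC, with a neighbour past the limit. RPS27A read 67082, 91816 and 70630, and RPL13A read 151478, 180919 and 142280. The 46 members with another probe had a median of -0.07 there. The list's median depended on the scaling: it was -0.0020 after quantile normalization and -0.02 after a trend with intensity was taken out, these being among the brightest spots. Of 77 mitochondrial ribosomal proteins, 56 were higher in KD1, with a median of 0.05, 68 differed by less than the error of their spots, and MRPL38 (2137, 1355 and 1507) was past 1.5-fold. The 16 with another probe had a median of 0.13 there.

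Small nucleolar and Cajal body RNAs with their host genes, which guide the modification of ribosomal and spliceosomal RNA, had a median of 0.10 with 177 of 246 higher in KD1, and 6 were past 1.5-fold in KD1 and 2 in KD2. SNORD74 read 552 in KD1, 350 in KD2 and 485 in NC, but lay beside a differing spot. SNORA70F read 322, 206 and 270, and SNORA2A read 38.8, 21.0 and 30.1. SNORD107 was at least 3.63-fold higher in KD1, again beside a differing spot. In the other direction SNORA14A read 27.7, 42.5 and 24.9, and SNORD114-23 was at least 2.23-fold higher in KD2, beside a differing spot too. Without a filter on weak probes the median was 0.02.

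Genes that process or sense small double-stranded RNA were close to level. Of the 19 genes of the small RNA machinery, 12 were higher in KD1, the median was 0.09, and 0 were past 1.5-fold. AGO2, the slicing Argonaute, read 4146 in KD1, 3477 in KD2 and 2575 in NC, and DICER1 read 2903, 2558 and 1761. Of 39 interferon response and RNA sensing genes, 26 were higher in KD2, with a median of -0.07. IFIT1 read 344, 432 and 1145, and OASL read 198, 239 and 452, so both knockdowns were below NC and KD1 was the lower. IRF3, the factor behind the first wave of interferon, went the other way and read 890, 627 and 736, with probes 0.45 and 0.49 higher in KD1. The 2 members past 1.5-fold were seen on 1 array each: OAS2 was at least 7.36-fold higher in KD2 beside a differing spot, and TLR7 at least 1.82-fold higher in KD1.

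Of 20 YAP and TAZ targets measured, 15 were higher in KD1 and the median was 0.09, and 14 differed by less than the error of their spots. CTGF, a matricellular protein, read 180 in KD1, 88.9 in KD2 and 151 in NC and was past 1.5-fold, and its family member CYR61 read 10291, 6924 and 3292, 0.52 higher in KD1. The AP-1 subunit FOSB read 343, 195 and 98.9, the only ERK-induced gene of 37 past 1.5-fold. The adaptor GAB1 was at least 1.54-fold higher in KD2, as the only member of 34 in EGFR signaling. WNT10A read 56.1, 93.6 and 64.6 and had a differing neighbour. The lymphotoxin chain LTB, in the NF-kB list, was at least 4.30-fold higher in KD1, also beside a differing spot. No gene of the Notch list (26) or the TGF-beta list (29) was past 1.5-fold, beside 6.73% of all genes and 0.692% of well-expressed ones.

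By the medians of their lists, stress and survival genes were nearly level. Of 33 apoptosis regulators, 1 was past 1.5-fold in KD1, BCL2L1, given above with its differing neighbour. The CDK inhibitor CDKN1A read 1410 in KD1, 1079 in KD2 and 636 in NC, 0.33 higher in KD1 on the log2 scale, and both knockdowns were above NC. In the lists of heat shock proteins, NRF2 targets, metallothioneins, the unfolded protein response, cholesterol and fatty acid synthesis, glycolysis, proteasome and respiratory chain, 0 genes were past 1.5-fold. Most members of each of these lists lay above the 75th percentile on both arrays. Only 0.692% of all such genes were past 1.5-fold, so the 0 cannot be read as a trait of these pathways. ABC transporters held ABCB1, the drug efflux pump (49.8, 82.3 and 70.7), ABCB9 (117, 74.3 and 111) and ABCA13, at least 2.26-fold higher in KD2. Of 185 zinc finger genes on chromosome 19, 4 were past 1.5-fold in KD1 and 2 in KD2. ZNF428 was the well-expressed member, at 4833, 7231 and 8965, and its other probe was at -0.45. Long non-coding RNAs of the LINC series, mostly weak, had 17 of 322 past 1.5-fold in KD1 and 18 in KD2, with a median of -0.05. Keratin-associated proteins, known from hair, had a median of -0.09, and 40 of the 48 measured were well above background on both arrays. The 15 above the 75th percentile on both also had a median of -0.09. In this list 3 of 48 were past 1.5-fold in KD1, of which KRTAP9-9 was seen on that array alone beside a differing spot. Among 16 measured genes of intestinal differentiation, the alkaline phosphatase ALPI was at least 2.10-fold higher in KD2, beside a differing spot.

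The letters complementary to the siRNA-1 seed were looked for in the 60-base probe sequences, on the probe's own strand. CAAAGCG was in 0.110% of probes and in those of 20 genes measured on both arrays, with a median difference of -0.10 and 0 genes past 1.5-fold in KD1 and 2 in KD2. Over all genes measured on both arrays the median was -0.02, with 1.34% past 1.5-fold in KD1 and 1.93% in KD2. For the strand opposite to that listed, the letters were CGCAAAT (14 genes, median -0.02), with 0 past 1.5-fold in KD1 and 1 in KD2. With so few genes these counts are a description only. A probe covers a small part of a transcript, and whole 3′ untranslated regions were not analysed here.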

How the data were processed

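Of the 3 arrays, SMARCA4-KD1 and SMARCA4-KD2 were compared, and NC was read beside them. The authors deposited scanner files with the processed intensity of each spot, extracted by Agilent Feature Extraction 10.7.1.1 per the processing notes, background-subtracted and detrended but not normalized between arrays, and a series-level table of the same intensity. Flags of the deposited files (0 or 1) were used as given.

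Control spots and outlier spots were left out, spots of a probe were averaged as log2, and each array's 75th percentile was subtracted. A value not well above background was raised, where lower, to the array's lowest one that was. The brightest probe stood for each gene name. Probe positions (hg19) and names are those of the array files. The error is that of the extraction software for both spots. Adjacent spots are the 6 nearest by position. Python 3.11.15, numpy 2.4.6, pandas 2.3.3, scipy 1.17.1, statsmodels 0.14.6, matplotlib 3.10.9, R 4.3.3 and limma 3.58.1 (normexp, offset 50) were used, and the steps were tested on simulated data.

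The arrays, the 42 lists and the rule for named genes were chosen with earlier results of these data known. Named were the 10 largest differences in each direction among genes with an NM accession above the percentile on both arrays, the 5 largest among dimmer ones, among those on 1 array, among genes by their least different probe and among other transcripts, list members past 1.5-fold (at most 4 per list and direction) or needed to describe a list, and SWI/SNF subunits, PRMT1, TNS4 and EGFR. A search of transcripts for seed matches was not run, since no transcript sequence was used here. The sequence of siRNA-2 and a few genes and lists are not reported here.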

Additional observations from a re-analysis of the deposited data

How the results depend on the processing

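No paired analysis was possible because each knockdown had 1 array, and for the same reason no array could be left out. SMARCA4 stayed between -0.13 and -0.09 (log2, KD1 minus KD2) under every alternative in which it was measured. The counts of genes at least 1.5-fold higher in KD1 and in KD2 (684 and 805) depended on the weak probes: 269 and 389 when a gene had to be well above background on both arrays, 243 and 207 with normexp background correction, and 360 and 314 at a threshold of 2-fold. The count for KD2 was 1229 without a floor and 1247 with the series-level values. Settings added after the data were seen gave 327 and 507 without genes beside a differing spot and 30 and 52 among genes above the 75th percentile on both arrays. The split between higher in KD1 and higher in KD2 turned with the normexp correction, with the intensity trend taken out (793 and 666) and with quantile normalization (748 and 727). With a gene's probes averaged, LINC00929 turned from -0.68 to 0.23. Of 130 gene values, the normexp correction moved 74 by more than the error of their spots, removing the floor 37, averaging the probes 12 and the series-level values 9, with their direction kept. The cause was not tested. A single array per condition, and signals near background for most genes past 1.5-fold, limit these values.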
